A study of Rattus norvegicus with 7 samples.

Results

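The set described here holds 33 cDNA clones of signalling proteins and of transporters, channels and binding proteins, out of 6240 features on a rat cDNA microarray. The clones were those that the study listed as upregulated after cortical injury under its headings for signalling (16 clones) and for transporters, channels and binding proteins (17 clones). Of 35 clones under these headings, 2 were left out. The study listed 22 of the 33 clones as upregulated 1 day post injury (dpi), 7 at 4 dpi and 4 at both. Male Sprague Dawley rats received a focal contusion of the cerebral cortex by weight drop, and RNA was taken 1 or 4 dpi. Each array set the injured ipsilateral cortex of 1 rat against the uninjured contralateral cortex of the same rat in 2 colours, with 3 rats at 1 dpi and 4 rats at 4 dpi. The reference was thus cortex of an injured animal, and sham-operated rats were not analysed here. The value of a clone is the log2 ratio of ipsilateral to contralateral RNA, so 0 is no difference and 1 is a 2-fold higher signal on the injured side. Such a ratio holds no level, so the tissue could not be checked by the levels of marker genes.

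Injury of the cortex disturbs ion balance, energy supply and the blood-brain barrier, and cells answer through receptors, kinases and phosphatases that pass signals from the membrane to the nucleus. MAP kinases are switched off again by dual-specificity phosphatases, small GTPases and their exchange factors direct the cytoskeleton and traffic, and annexins bind membranes when calcium rises. Carrier and binding proteins handle what damaged tissue releases or takes up, such as iron, fatty acids, retinoids and glucose. In injured brain these genes can be expressed by neurons, glia, vessel cells and phagocytes that enter the lesion.

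The clones were chosen by their log2 ratios at the day of their listing, so the values at that day are a description and carry no test. Values at the other day come from other rats and were tested with limma over all features with enough arrays, with Benjamini-Hochberg adjustment of p. A clone listed at both days would be in the set by either day alone, so each day was tested, with the limit that both days had been used for its listing. Calls of listed clones outside the set are likewise a description at the day of their listing. A feature was called upregulated when its adjusted p did not exceed 0.02 and its mean log2 ratio was above 0.7. These limits were adapted from the study's methods, which used SAM and describe the ratio limit as one on the mean that was also applied to each array. All 33 clones had values on 2 or more of the 3 arrays at 1 dpi, but 21 had values on 3 or more of the 4 arrays at 4 dpi, the number required for the test there. Of the remaining 12, 7 had a value on 2 arrays at 4 dpi and 5 on replicate 2 alone. Features with a value numbered between 3993 and 5208 per array at 1 dpi and between 2332 and 5082 at 4 dpi. The 33 clones had a value on 29, 33 and 33 of their spots at 1 dpi and on 26, 33, 18 and 22 at 4 dpi, in the order of replicates used for all values that follow.

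Some of the clones listed at 1 dpi were also upregulated in the rats of 4 dpi. Of the 26 clones listed at 1 dpi or at both days, 14 had enough arrays for the test at 4 dpi and 6 were called upregulated there, against 2.63% of the 3191 features tested. These 6 were annexin II, orexin precursor, neuropeptide Y, FYN binding protein, fatty acid binding protein 5 and chloride channel ABP. The other 8 had mean log2 ratios between -0.01 and 0.69 at 4 dpi. The median over the 14 clones was 0.60 at 4 dpi, beside -0.01 over all features tested, and 7 of the 14 lay above 0 on every array with a value, beside 20.7% of all features. Of these 6, 4 were among the 4 clones also listed at 4 dpi, and 2 were among the 10 listed at 1 dpi alone. The 4 dpi arrays had decided that split, so neither share is independent of them. With values on 2 arrays accepted, 21 clones were tested and 6 were again called, but the EST listed as Tax1 came in (adjusted p = 0.0117) and chloride channel ABP went out (adjusted p = 0.0215). The count of 6 was 2 without replicate 3, 3 without replicate 4, 4 without replicate 2 and 7 without replicate 1. When a log2 ratio above 0.7 was required on every array as well, the form closest to the study's limit on each array, it was 1, the orexin precursor.

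In the opposite direction, 11 clones listed at 4 dpi or at both days were tested in the rats of 1 dpi. Of these, 5 were called upregulated at 1 dpi, against 3.9% of the 4952 features tested. They were the 4 clones listed at both days and 1 of the 7 listed at 4 dpi alone, a split that the 1 dpi arrays had decided. Annexin III and a protein tyrosine phosphatase had an adjusted p of 0.0106 and 0.0131 but means under 0.7, at 0.66 and 0.61. The median over the 11 clones was 0.66 at 1 dpi, beside 0.01 over all features, and 10 of the 11 lay above 0 on every array, beside 28.3% of all features. Without replicate 2 or without replicate 3 of 1 dpi the count was 3, since 2 of the 5, the orexin precursor among them, then had 1 value left. Without replicate 1 it was 6, and with 0.7 required on every array 4.

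Near the limit of 0.7, the lowest mean log2 ratios at 1 dpi among clones listed for that day were 0.59 for phosphatase rVH6, 0.68 for prepronociceptin and 0.81 for a ras-like protein, and just outside lay annexin III with 0.66 and the protein tyrosine phosphatase with 0.61. Among clones listed for 4 dpi, the lowest means at 4 dpi were 0.61 for the protein tyrosine phosphatase, 0.66 for annexin V and 0.81 for transferrin, with metallothionein just outside at 0.69. Over the 21 clones with enough values at both days, 13 had a lower mean at 4 dpi than at 1 dpi and the median difference, 4 dpi minus 1 dpi, was -0.41. This difference was not tested, because its values had chosen the clones. Without replicate 1 of 4 dpi the median difference was -0.06. Every array of 1 dpi lay above every array of 4 dpi for PDE4B, thioredoxin reductase 1 and the clone RGIAQ93, which makes 3 of 21 beside 9.07% of the 3188 features tested at both days. The reverse held for annexin V, ferritin light chain, transferrin and the clone similar to TRAM1, which makes 4 of 21 beside 10.9%. The listing by day fixed much of both counts, so nothing is read from them.

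**Figure D1:**
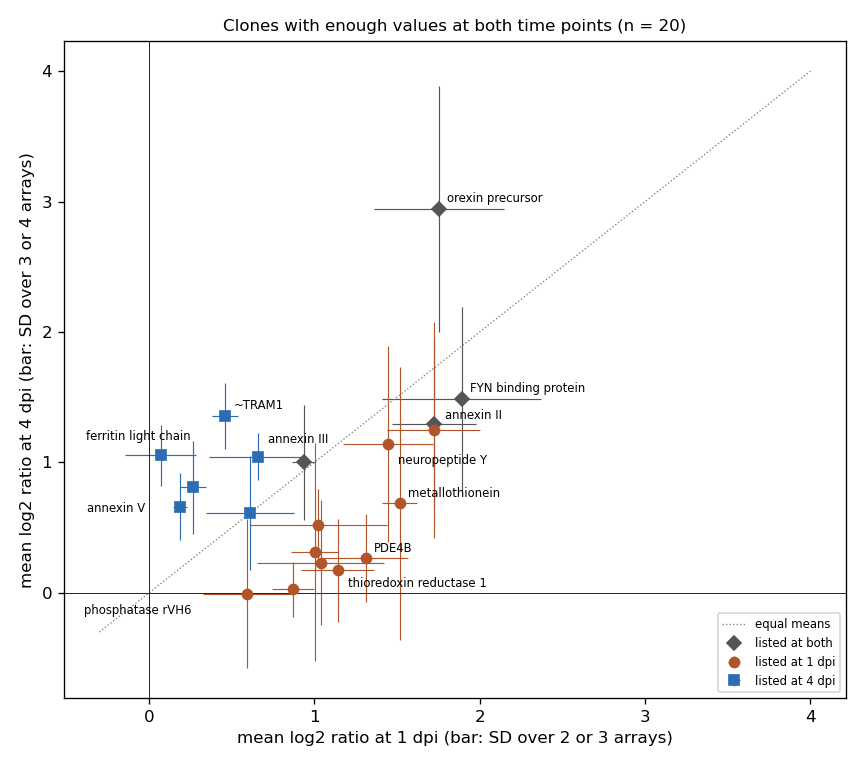
Mean log2 ratio of injured to uninjured cortex at 1 dpi (horizontal axis) and 4 dpi (vertical axis) for 20 clones with enough values at both days, with bars for the SD over arrays and a dotted line of equal means. The orexin precursor stands apart at 1.75 and 2.94. Clones listed at 1 dpi alone lie below the line, and clones listed at 4 dpi alone lie on or above it. The listing by day fixed much of these positions, so nothing is read from them.

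Of the 3 annexins, annexin III and annexin V were listed at 4 dpi alone. Annexin II, which binds phospholipids at the inner face of the cell membrane and has a role in plasmin formation at the cell surface, was listed at both days. Its log2 ratios were 1.54, 1.61 and 2.01 at 1 dpi and 0.34, 1.77, 1.41 and 1.66 at 4 dpi. All arrays were well above 0 except replicate 1 of 4 dpi, and the arrays of the days overlapped. It rose in the rats of 4 dpi to a mean of 1.29 ± 0.65 (SD, n = 4), a 2.45-fold ratio (limma adjusted p = 0.00441), and lost the call without replicate 3 (adjusted p = 0.0262) or replicate 4 (adjusted p = 0.0211). Annexin III, another calcium-dependent phospholipid-binding protein, had 0.36, 0.66 and 0.94 at 1 dpi and 0.80, 1.21, 1.14 and 1.02 at 4 dpi. Its 1 dpi mean of 0.66 ± 0.29 (SD, n = 3) was below the limit on the ratio, and without replicate 1 of 1 dpi it was 0.80, above it. Annexin V, which binds phosphatidylserine exposed on dying cells, had 0.19, 0.15 and 0.23 at 1 dpi and 0.85, 0.29, 0.79 and 0.72 at 4 dpi. The lowest array of 4 dpi lay above the highest of 1 dpi, and the 1 dpi mean of 0.19 ± 0.04 (SD, n = 3) had an adjusted p of 0.331. Annexin A7, not in the set but named with its family, was called downregulated at 1 dpi with a mean of -1.39 ± 0.49 (SD, n = 3) and had -0.54 ± 0.37 (SD, n = 3) at 4 dpi.

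The promoters of the 3 annexins of the set are shown because annexin II alone of these family members was listed at 1 dpi as well as at 4 dpi. Another reason is that c-fos and c-jun, whose proteins form the AP-1 factor, were called upregulated at 1 dpi on the same arrays. Their means were 1.66 ± 0.91 (SD, n = 3) and 1.14 ± 0.40 (SD, n = 3). Each promoter is the 250 bases before the gene's start in RefSeq's GRCr8 assembly, 5′ to 3′ on the gene's strand. Anxa2 is at chr8:78986002-78986251 (plus strand), Anxa3 at chr14:13085598-13085847 (minus strand) and Anxa5 at chr2:121272697-121272946 (minus strand). Capitals mark a match to the AP-1 motif TGANTCA, where N is any base, searched on both strands.
Anxa2: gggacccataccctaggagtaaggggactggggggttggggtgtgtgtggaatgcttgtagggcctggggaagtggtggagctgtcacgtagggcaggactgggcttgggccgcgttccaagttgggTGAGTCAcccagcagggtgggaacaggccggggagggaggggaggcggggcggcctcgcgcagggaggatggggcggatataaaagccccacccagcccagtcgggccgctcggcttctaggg
Anxa3: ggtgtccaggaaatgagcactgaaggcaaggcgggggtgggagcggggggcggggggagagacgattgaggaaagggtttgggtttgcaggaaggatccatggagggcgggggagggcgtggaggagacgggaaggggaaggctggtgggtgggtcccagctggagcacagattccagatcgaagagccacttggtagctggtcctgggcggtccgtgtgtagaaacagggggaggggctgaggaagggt
Anxa5: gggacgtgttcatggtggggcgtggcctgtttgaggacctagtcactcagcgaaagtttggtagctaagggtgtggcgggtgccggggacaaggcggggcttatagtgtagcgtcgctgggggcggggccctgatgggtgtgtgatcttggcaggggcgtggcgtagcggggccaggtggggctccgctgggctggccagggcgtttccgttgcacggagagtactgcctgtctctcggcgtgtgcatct
The Anxa2 window held 1 match, at bases -123 to -117 from the start, and the other annexin windows held none. Over all 33469 windows of this length, 6.34% held the motif. Of the 33 clones, 23 had a gene symbol set from the listed name, all 23 were in the RefSeq gene table, and 20 of these had a promoter window, 22 windows in all. The motif was in 3 of the 22, those of Anxa2, Pde4b (-244 to -238) and Crabp1 (-36 to -30). The cAMP response element TGACGTCA, searched on both strands, was in 0 of the 22 and in 1.59% of all windows. A match is a run of letters and not a binding site.

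Among the neuropeptides, the orexin precursor had the largest ratio of the set at 4 dpi. It is the protein from which the orexins are cut, peptides of hypothalamic neurons that act in arousal and feeding. The sequence record listed for the clone was not among those of rat genes in RefSeq's table, so its identity rests on the listed name. The log2 ratios were 1.48 and 2.03 on replicates 2 and 3 of 1 dpi, with no value on replicate 1, and 1.77, 2.82, 3.15 and 4.05 at 4 dpi. Replicates 2 to 4 of 4 dpi lay above both arrays of 1 dpi, and replicate 1 lay between these. It rose by 1.75 ± 0.39 at 1 dpi (SD, n = 2, limma adjusted p = 0.000255). At 4 dpi it rose by 2.94 ± 0.94 (SD, n = 4, adjusted p = 0.000317), a 7.70-fold ratio. Both days had been used for its listing, the limit given above. The 4 dpi call held without each replicate in turn. Neuropeptide Y, a peptide of cortical interneurons, had 1.70, 1.48 and 1.16 at 1 dpi and 0.40, 1.40, 2.07 and 0.69 at 4 dpi. The 4 dpi arrays spread on both sides of those of 1 dpi. It rose at 4 dpi to a mean of 1.14 ± 0.75 (SD, n = 4, adjusted p = 0.0135), with adjusted p of 0.0485, 0.0300 and 0.0211 without replicates 2, 3 and 4. Prepronociceptin, the precursor of an opioid-like peptide, had 0.83, 0.76 and 0.47 at 1 dpi and a single value of -0.04 at 4 dpi. Outside the set, the cholecystokinin precursor and a clone similar to oxytocin were the other listed neuropeptides. Both passed the limits for upregulation at 1 dpi, beside 3.9% of all features, each with a mean of 0.87 (n = 3 and n = 2). They had been listed from these same arrays, so this is a description. Cholecystokinin had 0.59 ± 0.39 at 4 dpi (SD, n = 4), with an adjusted p of 0.0247, over the limit. The clone similar to oxytocin had -0.80 and 0.23 on replicates 1 and 2 of 4 dpi, one on either side of 0.

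The MAP kinase regulators were listed at 1 dpi alone. The phosphatase cpg21, which removes phosphate from MAP kinases in the nucleus, had 2.30, 2.26 and 1.43 at 1 dpi, the largest mean of the signalling clones at that day (2.00 ± 0.49, SD, n = 3, a 3.99-fold ratio). Its single 4 dpi value was 0.49, below all of these. The phosphatase rVH6, which acts on the kinase ERK in the cytoplasm, had 0.79, 0.71 and 0.29 at 1 dpi and -0.28, 0.65 and -0.39 on replicates 1, 2 and 4 of 4 dpi. Its 4 dpi mean of -0.01 ± 0.57 (SD, n = 3) had an adjusted p of 0.987 and no settled sign. An EST of MAP kinase-activated protein kinase 2, a kinase downstream of p38, had 1.15 and 0.95 on replicates 2 and 3 of 1 dpi and 0.56 on the only 4 dpi array with a value. Of the other MAP kinase pathway clones that the study listed, c-fos and c-jun were called upregulated and the kinase MEKK1 was called downregulated at 1 dpi, at -0.85 ± 0.33 (SD, n = 3). At 4 dpi, c-fos had 0.62 ± 1.49 (SD, n = 3, adjusted p = 0.381), c-jun 0.20 ± 0.34 (SD, n = 3, adjusted p = 0.386) and MEKK1 -0.43 ± 0.18 (SD, n = 4, adjusted p = 0.0217), so that these means missed the limits too.

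The other enzymes of signalling were not called at the day that had not chosen them. PDE4B, a phosphodiesterase that breaks down cyclic AMP, had 1.56, 1.32 and 1.05 at 1 dpi and -0.18, 0.61, 0.21 and 0.41 at 4 dpi. The days did not overlap, and the 4 dpi mean of 0.26 ± 0.34 (SD, n = 4) had an adjusted p of 0.201. Nucleoside diphosphate kinase, which moves phosphate between nucleotides, had 0.95, 0.89 and 1.16 at 1 dpi and 0.18, 1.37, -0.66 and 0.38 at 4 dpi. Its 4 dpi arrays ran from the highest to the lowest value of the clone, and their mean was 0.32 ± 0.83 (SD, n = 4, adjusted p = 0.446). The protein tyrosine phosphatase, listed at 4 dpi, had 0.55, 0.38 and 0.90 at 1 dpi and -0.04, 0.75, 0.85 and 0.88 at 4 dpi. Its 1 dpi mean of 0.61 ± 0.26 (SD, n = 3) passed the adjusted p (0.0131) but not the limit on the ratio. Its means were the same at both days to the second decimal, with replicate 1 of 4 dpi alone below 0.

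Of the 5 clones for small GTPases and adaptors, 4 had values on 2 arrays at 4 dpi, under the number required for the test. FYN binding protein, an adaptor of leukocytes that links receptor signals to adhesion, was the exception. It had 1.63, 1.60 and 2.45 at 1 dpi and 0.47, 1.74, 1.64 and 2.10 at 4 dpi, so that the days overlapped and replicate 1 of 4 dpi was lowest. The 4 dpi mean was 1.49 ± 0.71 (SD, n = 4), a 2.80-fold rise (adjusted p = 0.00317, and 0.0222 without replicate 3). At 1 dpi it rose by 1.89 ± 0.48 (SD, n = 3, adjusted p = 6.2e-05). Its listing, too, had used both days. RAN, the GTPase of nuclear transport, had 1.42, 1.45 and 1.24 at 1 dpi and 1.25 and -0.20 on replicates 2 and 4 of 4 dpi. PAK-interacting exchange factor beta2, an activator of Rac and Cdc42, had 0.90, 0.46 and 1.29 at 1 dpi and 0.42 and 0.56 on replicates 1 and 2 of 4 dpi. The LIM-domain protein RIL had 0.92, 1.00 and 0.61 against 0.25 and 0.89, and the ras-like protein 0.70, 0.87 and 0.87 against 0.08 and 0.74, on the same arrays. For these last 3 clones replicate 2 gave the higher of the pair of 4 dpi values.

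**Figure D2:**
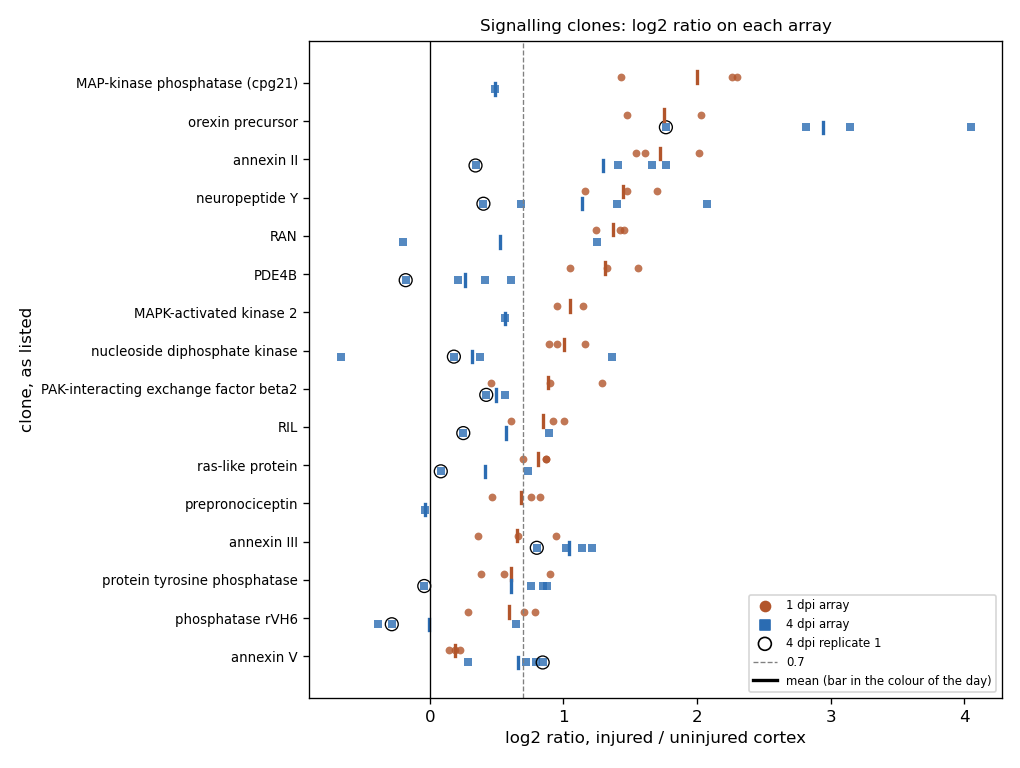
Log2 ratio on each array for the 16 signalling clones, ordered by their 1 dpi mean, with round points for 1 dpi, square points for 4 dpi, circled squares for replicate 1 of 4 dpi, bars for the means and a broken line at 0.7. Annexin III and annexin V lie higher at 4 dpi, the orexin precursor reaches 4.05, and PDE4B shows no overlap between the days.

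CD44, a surface receptor for hyaluronan and osteopontin, had the largest ratio of the set at 1 dpi, with 2.80, 2.54 and 3.82 (mean 3.05 ± 0.68, SD, n = 3). Only replicates 1 and 2 of 4 dpi had a value, 0.10 and 2.42, far apart, and with 2 arrays accepted the adjusted p was 0.134.

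The lipid and retinoid binding proteins described here lay above 0.5 on every array with a value. Fatty acid binding protein 5, a carrier of fatty acids in the cytoplasm, had 0.90, 0.89 and 1.01 at 1 dpi and 0.83, 0.54, 1.57 and 1.06 at 4 dpi. The arrays of 4 dpi lay on both sides of those of 1 dpi. It rose by 0.94 ± 0.07 at 1 dpi (SD, n = 3, adjusted p = 0.000619). At 4 dpi it rose by 1.00 ± 0.44 (SD, n = 4, adjusted p = 0.0034), a 2.00-fold ratio. Its listing had used both days. The 4 dpi call held without each replicate. The cellular retinoic acid-binding protein I had 1.30 and 1.30 on replicates 2 and 3 of 1 dpi and 0.85 on replicate 2 of 4 dpi. A clone of retinoic acid receptor alpha 2, outside the set, was called upregulated at 1 dpi with a mean of 1.53 ± 0.11 (SD, n = 3). It was not tested at 4 dpi, where it had -0.34 and 0.60 on replicates 1 and 2.

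Of the 3 clones for metal-binding proteins, 1 was listed at 1 dpi and the iron proteins at 4 dpi. Metallothionein, which binds zinc and copper, had 1.40, 1.60 and 1.54 at 1 dpi, close together, and -0.71, 0.62, 1.77 and 1.06 at 4 dpi, spread from the lowest value of the whole set to above the 1 dpi arrays. The 4 dpi mean of 0.69 ± 1.04 (SD, n = 4) had an adjusted p of 0.176. Without replicate 1 the mean was 1.15 with an adjusted p of 0.000184, so the call turned on that replicate. Without replicate 3 the mean was 0.32, with an adjusted p of 0.477. Ferritin light chain, a subunit of the iron store of cells, had 0.05, 0.29 and -0.13 at 1 dpi and 0.91, 0.80, 1.27 and 1.24 at 4 dpi. The arrays of the days lay apart, and the 1 dpi mean was 0.07 ± 0.21 (SD, n = 3, adjusted p = 0.769). Transferrin, the iron carrier of plasma that oligodendrocytes also make, had 0.18, 0.33 and 0.30 at 1 dpi and 0.89, 0.36, 1.23 and 0.76 at 4 dpi. Its days also lay apart, narrowly at replicate 2, and the 1 dpi mean was 0.27 ± 0.08 (SD, n = 3, adjusted p = 0.173). The iron transporter Nramp2, outside the set, had 0.69 ± 0.19 at 1 dpi (SD, n = 3, adjusted p = 0.00557), just under the limit on the ratio, and -0.04 ± 0.26 at 4 dpi (SD, n = 3).

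Both clones for redox and folding enzymes were listed at 1 dpi. Thioredoxin reductase 1, which keeps thioredoxin reduced with electrons from NADPH, had 0.93, 1.37 and 1.13 at 1 dpi and -0.39, 0.26, 0.31 and 0.52 at 4 dpi. The days did not overlap, and the 4 dpi mean was 0.17 ± 0.39 (SD, n = 4, adjusted p = 0.449). The beta polypeptide of prolyl 4-hydroxylase, also known as protein disulphide isomerase of the endoplasmic reticulum, had 0.66, 1.48 and 0.93 at 1 dpi and 0.22, 0.36, 0.79 and 0.71 at 4 dpi. All arrays were above 0, and its 4 dpi mean of 0.52 ± 0.27 (SD, n = 4) passed the adjusted p (0.0192) but not the limit on the ratio.

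A Txnrd1 promoter is shown because thioredoxin reductase 1 is a known target of the antioxidant response, whose element has the core TGACNNNGC. RefSeq gave 2 windows for the gene, and the one with a match, at chr7:22755905-22756154 (minus strand, GRCr8), is printed with the core in capitals as it reads on the opposite strand.
Txnrd1: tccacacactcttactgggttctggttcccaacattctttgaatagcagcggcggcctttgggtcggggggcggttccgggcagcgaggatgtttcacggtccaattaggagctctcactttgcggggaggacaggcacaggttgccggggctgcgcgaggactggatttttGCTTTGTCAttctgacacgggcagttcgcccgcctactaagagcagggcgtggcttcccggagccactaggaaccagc
The match lay at bases -78 to -70. The core, searched on both strands, was in 3 of the 22 windows of the set, the others being those of Cd44 (-108 to -100) and Pde4b (-176 to -168), and in 10.1% of all windows.

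Among the transport and channel clones, 3 were listed at 1 dpi and 1 at 4 dpi. Chloride channel ABP, listed under that name, had 2.03, 1.49 and 1.64 at 1 dpi and 0.29, 1.78 and 1.67 on replicates 1 to 3 of 4 dpi. Apart from replicate 1 the 4 dpi arrays lay among those of 1 dpi. It rose at 4 dpi to a mean of 1.25 ± 0.83 (SD, n = 3, adjusted p = 0.0183), with adjusted p of 0.0748, 0.0822 and 0.0235 without replicates 2, 3 and 4. Glucose-transporter type 1, which carries glucose across the blood-brain barrier, had 1.30, 1.22 and 0.60 at 1 dpi and -0.28, 0.87, 0.11 and 0.22 at 4 dpi. The days overlapped through replicate 2 of 4 dpi, and the 4 dpi mean was 0.23 ± 0.48 (SD, n = 4, adjusted p = 0.369). This mean was 0.02 without replicate 2 and 0.40 without replicate 1, and it was not called in either case. The clone similar to TRAM1, a protein of the channel through which new proteins enter the endoplasmic reticulum, had 0.45, 0.54 and 0.39 at 1 dpi and 1.10, 1.31, 1.71 and 1.31 at 4 dpi. Its days lay apart, and the 1 dpi mean of 0.46 ± 0.08 (SD, n = 3) had an adjusted p of 0.0276. The clone RGIAQ93 was listed under this ID both as importin beta-3 subunit, a nuclear import receptor, and as adenylosuccinate synthetase, so its gene is uncertain. It had 1.02, 0.78 and 0.82 at 1 dpi and -0.15, -0.03 and 0.26 on replicates 1, 2 and 4 of 4 dpi, with no overlap and a 4 dpi mean of 0.03 ± 0.21 (SD, n = 3, adjusted p = 0.901).

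The remaining binding proteins had values on 1 or 2 arrays at 4 dpi. Insulin-like growth factor-binding protein 3, a carrier that holds these growth factors outside cells, had 1.40, 1.08 and 1.26 at 1 dpi and 0.78 on replicate 2 of 4 dpi. A clone similar to Nedd4 WW binding protein 4 had 1.47, 1.44 and 0.87 at 1 dpi and 1.06 and -0.12 on replicates 2 and 4 of 4 dpi. An EST listed as Tax1 had 1.00, 0.55 and 1.01 at 1 dpi and 0.77 and 0.98 on replicates 1 and 2 of 4 dpi, and was thus the only one of these 3 whose 4 dpi values all lay within its 1 dpi range. With 2 arrays accepted it was called upregulated at 4 dpi, at 0.88 ± 0.15 (SD, n = 2, adjusted p = 0.0117).

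**Figure D3:**
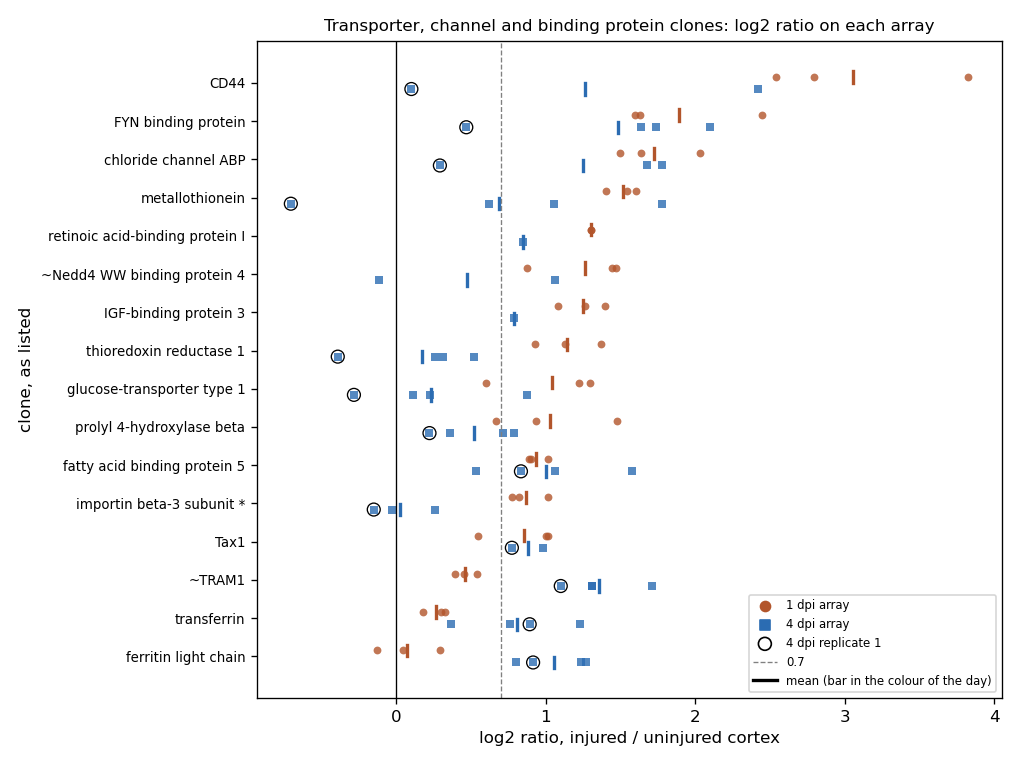
Log2 ratio on each array for 16 transporter, channel and binding protein clones, ordered by their 1 dpi mean and marked by day, with circled squares for replicate 1 of 4 dpi, bars for the means and a broken line at 0.7 (the asterisk marks the clone with an uncertain gene). Ferritin light chain, transferrin and the clone similar to TRAM1 lie higher at 4 dpi, and metallothionein spreads from -0.71 to 1.77 at 4 dpi.

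Replicate 1 of 4 dpi often had the lowest value of its day. It was the lowest of the 4 arrays for 12 of the 17 clones with a value on all of them, beside 20.1% of the 2269 features with 4 values. These were 9 of the 11 clones listed at 1 dpi or both days and 3 of the 6 listed at 4 dpi alone. For annexin V it was the highest. Over the 16 clones with a value on all 7 arrays, the median log2 ratio was 0.92, 1.06 and 0.98 at 1 dpi and 0.37, 0.78, 1.18 and 0.82 at 4 dpi. Among the clones with a value, 21 of 29, 24 of 33 and 25 of 33 lay above 0.7 at 1 dpi, and 9 of 26, 20 of 33, 14 of 18 and 13 of 22 at 4 dpi. The median over all features lay within 0.01 of 0 on every array, which normalisation within each array sets. Ipsilateral RNA was in Cy3 on this array, on replicate 4 of 4 dpi and on replicate 3 of 1 dpi. The part of the dye or of any other property of the array was not tested.

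Marker clones of phagocytes and neurons are given beside these values. The lists were drawn from genes that the study had listed on the same arrays, so their direction is not independent. Of 5 phagocyte clones, 4 passed as upregulated at 1 dpi, beside 3.9% of all features, and so did all 4 with enough arrays at 4 dpi, beside 2.63%. Their median on each array, over the 3 to 5 clones with a value there, was 0.60, 0.89 and 0.81 at 1 dpi. At 4 dpi it was 1.11, 1.51, 1.74 and 1.81, lowest on replicate 1. The class III Fc gamma receptor had 0.05 on that array and between 1.51 and 1.74 on the others of 4 dpi, while C1q beta, C1q C and macrophage expressed gene 1 had 1.22, 1.24 and 0.97 there. Of 3 neuron clones, 1 was called downregulated at 1 dpi, beside 1.51% of all features, and both with enough arrays at 4 dpi were called, beside 0.376%. Their median per array was -0.62, -0.32 and -0.33 at 1 dpi and -0.77, -0.73, -1.15 and -0.67 at 4 dpi. Neuropeptide Y of cortical interneurons, not on this list, went the other way, with means of 1.45 at 1 dpi and 1.14 at 4 dpi. The cholecystokinin precursor did too, with 0.87 and 0.59. The part of either cell type in the ratios of the 33 clones was not tested. In RNA from the dissected lesion area and the cortex around it, more cells of a type and more RNA per cell cannot be told apart.

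**Figure D4:**
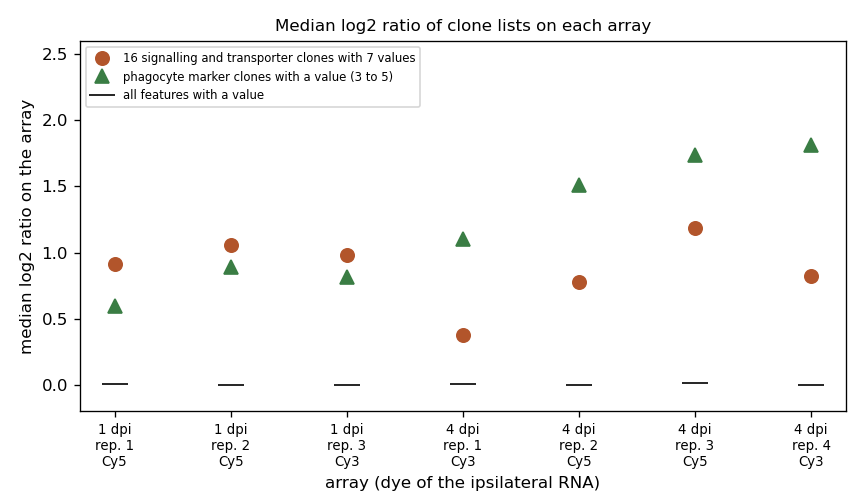
Median log2 ratio on each of the 7 arrays (horizontal axis, with the dye of the ipsilateral RNA) for the 16 clones of the set with values on all arrays (circles), for phagocyte marker clones (triangles) and for all features (dashes). Replicate 1 of 4 dpi has the lowest median of the set, 0.37. The phagocyte median, over the 3 to 5 clones with a value on the array, is higher on every 4 dpi array than on any 1 dpi array. Single clones overlapped between the days, such as the class III Fc gamma receptor, at 0.05 on replicate 1 of 4 dpi.

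Clones that the study listed as downregulated under the same headings give the counterpart. Of 8 such signalling clones, 7 were matched by clone ID, and all 9 transporter clones were. Beside 1.51% of all features at 1 dpi and 0.376% at 4 dpi, 5 of 7 signalling clones were called downregulated at 1 dpi and 2 of 6 tested at 4 dpi, with medians of -0.85 and -0.40. The delta subunit of the GABA-A receptor had -1.43, -0.66 and -1.25 at 1 dpi. Against the same shares, 7 of 9 transporter clones were called at 1 dpi and 1 of 5 tested at 4 dpi, with medians of -1.23 and 0.02. The transporter called at 4 dpi was a Na+K+ ATPase, the pump that keeps the ion gradients of neurons, with -1.08, -0.72, -1.07 and -0.95. These values too had chosen the clones and are a description.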

How the data were processed

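The authors scanned 2-colour cDNA arrays, subtracted local background, left out spots absent or less than 2 times above it, formed injured over uninjured ratios with swapped dyes turned, applied Lowess to each array and deposited log2 ratios. Ipsilateral RNA was in Cy5 on 2 of 3 arrays at 1 dpi and 2 of 4 at 4 dpi. Scaling between arrays is not given in the sources used here. The scanner's intensities were not analysed here. How many features had a value is therefore the measure of signal against background, and precision is limited by how many arrays there are. Samples were grouped by their titles, and 0 columns belonged to no sample.

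From these ratios, means were tested against 0 at each day with limma 3.58.1 (lmFit, eBayes) in R 4.3.3 and Benjamini-Hochberg adjustment. Fits were tested on simulated data. The methods' SAM, with missing values filled from the 10 nearest features, and other limits, filters, dye terms, centring, scaling and left-out arrays were alternatives. Python 3.11.15, pandas 2.3.3, scikit-learn 1.9.0 and matplotlib 3.10.9 were used otherwise.

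The text describes the clones of the set by role. All 33 are in the counts, and 1 of them is not reported here by name or value. Names come from the study's lists through clone IDs. All 33 clones had a mean within 0.2 (log2) of a listed fold change on at least 1 day. The members, marker lists and other lists were chosen with earlier results of these data known. Symbols were set from listed names. Annotated coordinates are RefSeq's for GRCr8. The rest of the study's lists, its PCR and its histology were not analysed here.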

Additional observations from a re-analysis of the deposited data

Results flagged for a closer look

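Of the 17 clones with a value on all 4 arrays of 4 dpi, 1 had an array far from the others by Dixon's criterion for the gap at the end of a range. It was the protein tyrosine phosphatase (RGIAD87), with -0.0409 on replicate 1 of 4 dpi against 0.75, 0.85 and 0.88 on the others, a gap of 0.864 of the whole range. Chance alone marks about 1 in 20 such groups. The cause was not tested.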

How the results depend on the processing

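The count of clones listed at 1 dpi and called upregulated at 4 dpi (6) was 1 with a log2 ratio above 0.7 required on every array, and between 2 and 7 with a replicate left out. It lay between 4 and 7 under SAM, the other limits, robust eBayes, 1 fit of both days, a dye term, the filters, centring and scaling. The count for 1 dpi of clones listed at 4 dpi (5) was 3 with a value required on every array, which leaves 9 clones to test, between 3 and 6 with a replicate left out, and between 4 and 7 otherwise. Their medians, 0.60 and 0.66, ran from 0.51 to 0.84 and from 0.50 to 0.80 with a replicate left out. The median difference of the 21 clones between days (-0.41) was -0.47 with replicate number as a block and ran from -0.46 to -0.06 with an array left out. The numbers do not pair the rats, since no rat was used at both days. Deviations of same-numbered arrays correlated at -0.17, 0.01 and -0.27 over 2190 features, for replicates 1, 2 and 3. The ipsilateral dye differed between the days for replicates 1 and 3 and was the same for replicate 2. Its part in these values was not tested. Of 160 tested alternatives for single clones, 143 kept direction and call, 9 lost the call, 2 gained it and 6 changed sign. Of 25 means over the dye orientations, which had no test, 24 kept their sign and 1 changed it. The sign changes were in means between -0.01 and 0.32, each smaller in size than its SD over arrays. At 4 dpi they were phosphatase rVH6 at 0.0495 when scaled, 0.16 with the dye orientations weighted equally, 0.13 without replicate 1 and 0.18 without replicate 4 (range with a replicate left out, -0.34 to 0.18), nucleoside diphosphate kinase at -0.0348 without replicate 2 (-0.0348 to 0.64), and RGIAQ93 at -0.0885 without replicate 4 (-0.0885 to 0.12). At 1 dpi it was ferritin light chain at -0.0422 without replicate 2 (-0.0422 to 0.17). Requiring 1 array fewer at 1 dpi was not run, since the test already accepts 2 arrays there. The causes were not tested. The 5 clones with 1 value at 4 dpi had no test there, and of the 7 with 2 values, 1 was called when 2 arrays were accepted.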
